A study of Rattus norvegicus with 48 samples.

Results

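The transcriptional effect of senicapoc was measured in primary rat cortical cultures on 3 backgrounds: untreated cultures, cultures given the HIV-1 protein Tat, and cultures given Tat together with cocaine. The libraries were assigned to their groups by their labels. They numbered 18 of the 48 in the series, 3 in each of 6 of its 16 groups, and each background set 3 libraries with senicapoc against 3 without it. The groups were Control (neither agent), Senicapoc (1 µM), Tat (6 ng/mL for 48 h), Tat-Senicapoc (the same Tat with 1 µM senicapoc), Tat-Cocaine (the same Tat, followed by 25 µM cocaine for 24 h) and Tat-Cocaine-Senicapoc (all 3 agents). The paper describes cocaine as added after the 48 h of Tat. The time since Tat was given may thus differ between the Tat and Tat-Cocaine backgrounds and cannot be told apart from cocaine. How long senicapoc was given was not stated in the sources used here. All came from mixed cortical cultures of fetal Sprague-Dawley rats, kept for 3 weeks in vitro. The labels call the cells neurons, but transcripts of astrocytes, microglia and oligodendrocytes were also well represented at levels given with their markers. What vehicle the Control, Tat and Tat-Cocaine cultures received was not given in the sources used here, nor whether the 3 libraries of a group came from separate animals or platings, so p-values measure only the spread between these libraries, which may be technical.

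Senicapoc is a small molecule that blocks the intermediate-conductance calcium-activated potassium channel, which is encoded by Kcnn4. The channel opens when calmodulin bound to it senses a rise in intracellular calcium, and the potassium that leaves the cell holds the membrane potential negative, which favours further calcium entry through store-operated and other channels. In the brain the channel is best known from microglia, where its current accompanies activation, migration and the release of inflammatory mediators, and it is also known from astrocytes and endothelium. Tat, the transactivator of the virus, is released by infected cells and activates microglia in culture. A block of the channel need not alter its transcript, so RNA-seq reads what follows in the cultures rather than the block itself.

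Depth lay between 19.5 and 29.1 M (mega) reads on genes per library. Values are CPM, the reads of a gene scaled by the authors to the size of its library. Differences are on the log2(CPM + 0.5) scale, which understates the change of genes near 0.5 CPM, a value that stood for 9.86 to 15 reads. The effect of senicapoc was taken in each background as the group with senicapoc minus the group without it, and the mean effect is the mean of the 3. Tests are those of limma across 15890 genes, with the spread estimated over all 48 libraries, and a gene was called where the Benjamini-Hochberg FDR was under 0.05. With senicapoc 6.81%, 12.1% and 11.2% of all genes were higher without overlap of the groups in untreated, Tat and Tat-Cocaine cultures. The shares lower without overlap were 6.46%, 13.6% and 8.2%, and statements on single genes are to be read beside them. Libraries of a group were not closely alike: the nearest library, by distance over all tested genes, was of the same group for 7 of the 18 and of another group for 11. Each Control library lay nearest to the Senicapoc library of the same replicate number, and the main fit did not pair libraries by number. Tat-Cocaine replicate 3 lay nearest to Tat replicate 1, Tat replicate 3 nearest to Tat-Cocaine replicate 2, and Tat-Senicapoc replicate 1 nearest to Tat-Cocaine replicate 1. Senicapoc replicate 2 stood farthest from its group relative to the others, at 2.09 times the distance between the other 2 libraries, followed by Tat-Senicapoc replicate 1 at 1.77 and Tat-Cocaine replicate 3 at 1.49. Counts are therefore also given without these 3 libraries.

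The transcript of the channel itself was scarce. Kcnn4 stood at 1.15, 1.91 and 1.5 CPM in the Control libraries and at 1.00, 1.78 and 1.13 CPM in the Senicapoc libraries. In Tat libraries it stood at 4.56, 6.30 and 6.33 CPM against 4.17, 4.34 and 3.78 CPM in Tat-Senicapoc. In Tat-Cocaine libraries it stood at 6.13, 3.27 and 4.75 CPM against 4.67, 5.97 and 5.08 CPM in Tat-Cocaine-Senicapoc. Every Tat-Senicapoc library was below every Tat library (13.6% of all genes were lower without overlap there), and the groups overlapped in the other 2 backgrounds. The mean effect was −0.14 (SE 0.17, limma FDR 0.67), with −0.17 in untreated, −0.43 in Tat and 0.17 in Tat-Cocaine cultures, and Kcnn4 was not called in any of them. Of the list of calcium-activated potassium channels and their subunits, 7 of 9 genes were tested and none was called. Their median was 0.27 in untreated, 0.32 in Tat and −0.14 in Tat-Cocaine cultures. With Tat, 2 of the 7 were higher at an unadjusted p under 0.05 (8.73% of all genes). The summed level of the 9 was 66.8 to 90.8 CPM in Control against 92.9 to 96.4 CPM in Senicapoc. It was 62.0 to 81.0 CPM in Tat against 88.1 to 101 CPM in Tat-Senicapoc. In Tat-Cocaine it was 67.9 to 77.2 CPM, against 58.5 to 68.7 CPM with senicapoc. The large-conductance channel Kcnma1 had a mean effect of 0.36 (limma FDR 0.316) and the small-conductance channel Kcnn3 one of −0.081 (limma FDR 0.737).

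Acod1 encodes the myeloid enzyme that makes itaconate and was followed for that reason. It stood at 0.115, 0.539 and 0.454 CPM in Control and at 0.0669, 0.155 and 0.206 CPM in Senicapoc libraries. In Tat it stood at 47.5, 92.2 and 8.75 CPM against 4.37, 22 and 14.4 CPM in Tat-Senicapoc, and in Tat-Cocaine at 1.66, 10.8 and 29 CPM against 10.2, 38.8 and 11.6 CPM in Tat-Cocaine-Senicapoc. The groups overlapped in all 3 backgrounds, with a log2 difference of −1.55 in Tat (limma FDR 0.308) and 0.94 in Tat-Cocaine cultures (limma FDR 0.587), and the mean effect of −0.34 had an SE of 0.48. The libraries with Tat thus spread too widely for a senicapoc effect on Acod1 to be read.

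Antioxidant genes were among those that fell, and the promoters of Nqo1 and Gsta1 are shown because both are textbook targets of Nrf2, the factor that binds the antioxidant response element. The sequences are the RefSeq entries of build GRCr8 from 250 bases before to 50 bases after the start, 5′ to 3′ on the minus strand, at chr19:52220218-52220517 for Nqo1 and chr9:31216483-31216782 for Gsta1. Capitals mark a match to the core TGACNNNGC, searched on both strands.
Nqo1: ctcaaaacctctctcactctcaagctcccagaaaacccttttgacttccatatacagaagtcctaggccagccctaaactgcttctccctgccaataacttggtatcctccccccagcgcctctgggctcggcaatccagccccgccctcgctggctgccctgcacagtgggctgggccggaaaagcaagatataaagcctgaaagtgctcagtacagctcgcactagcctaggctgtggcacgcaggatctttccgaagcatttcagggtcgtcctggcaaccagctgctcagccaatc
Gsta1: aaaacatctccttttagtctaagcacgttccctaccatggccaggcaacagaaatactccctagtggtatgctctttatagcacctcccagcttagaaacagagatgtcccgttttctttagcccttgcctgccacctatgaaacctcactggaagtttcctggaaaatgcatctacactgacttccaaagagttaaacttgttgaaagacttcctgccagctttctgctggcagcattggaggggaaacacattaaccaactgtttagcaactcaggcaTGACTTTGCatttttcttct
The core was found once in the Gsta1 window, from base 31 after the start, and not in the Nqo1 window. It was present in 12.1% of the 33469 promoters of the table and in 15.4% of the 11225 tested genes that had one. Of the genes called higher in the mean effect 7 of 59 (11.9%) had it, and of those called lower 13 of 86 (15.1%), shares near those of all promoters of this length. A match of letters is a description and does not show binding. Sites more than 250 bases before the start were not searched. A window without a match thus does not show that its gene lacks a site.

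Over the 3 backgrounds, a small number of genes differed by a small amount between libraries with and without senicapoc. Limma called 184 of 15890 genes in the mean effect (1.16%), of which 73 rose (0.459%) and 111 fell (0.699%). The median change of the genes that rose was 0.23, a 1.17-fold difference, and that of the genes that fell was −0.29, a 0.817-fold difference. Only 1 of the 184, the atypical cadherin Fat2, differed by 1 or more on the log2 scale, and 68 of the genes that rose and 97 of those that fell differed by less than 0.5. Estimates had the same sign in all 3 backgrounds for 72 of the 73 and 107 of the 111, where 13.8% of all genes were higher and 15% lower in all 3. Since the same libraries gave the mean and its parts, this describes the calls and does not test them. An unadjusted p under 0.05 was reached by 2852 genes (17.9%).

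The number of calls in the mean effect depended on single libraries. It was 39 without Control replicate 2, 55, 488 and 57 without Senicapoc replicates 1, 2 and 3, 438, 58 and 51 without Tat replicates 1, 2 and 3, 61 and 65 without Tat-Senicapoc replicates 2 and 3, 104, 33 and 540 without Tat-Cocaine replicates 1, 2 and 3, and 61 and 56 without Tat-Cocaine-Senicapoc replicates 1 and 3. Without the 3 libraries that stood apart it was 1316. Of the 184 genes, 29 were called in every one of the 18 fits that left out 1 library (14 higher and 15 lower), and 183 kept their sign in all of them. Seen from the other side, of the genes called in the mean of the Tat and Tat-Cocaine backgrounds, 24 of 27 higher and 46 of 62 lower genes had the same sign in untreated cultures (49.8% and 50.2% of all genes had these signs). The untreated libraries entered this choice only through the shared estimate of the spread. Of the genes called in the mean of untreated and Tat cultures, 31 of 47 higher (53.0% of all genes had this sign) and 72 of 100 lower genes (46.99% of all genes) had the same sign in Tat-Cocaine cultures, and 4 of the 47 were lower there at an unadjusted p under 0.05. The mean of untreated and Tat-Cocaine cultures had 0 limma calls, with 1610 genes at an unadjusted p under 0.05, so that none could be read in Tat cultures.

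The largest rises belonged to genes of low or moderate level. F5, which encodes coagulation factor V, stood at 0.575, 1.03 and 1.09 CPM in Control and 1.47, 0.464 and 1.48 CPM in Senicapoc libraries. It stood at 1.32, 1.33 and 1.80 CPM in Tat against 3.08, 3.85 and 4.91 CPM in Tat-Senicapoc, and at 0.809, 0.696 and 3.02 CPM in Tat-Cocaine against 4.5, 3.07 and 4.44 CPM in Tat-Cocaine-Senicapoc libraries. With Tat or Tat-Cocaine every library with senicapoc was above every library without it, and in untreated cultures the groups overlapped. The mean effect was 0.89 (SE 0.20, limma FDR 0.0224), a 1.85-fold rise. F2rl3, the gene of a protease-activated receptor that responds to thrombin, rose 1.67-fold (0.74, limma FDR 0.0425), with differences of 0.12, 1.11 and 0.98 in untreated, Tat and Tat-Cocaine cultures. Ccdc125, a coiled-coil protein, rose by 0.61 (limma FDR 0.0178), most in Tat-Cocaine cultures, at 1.07. The unnamed gene NEWGENE_2134 rose by 0.57 (limma FDR 0.0462) and the small nucleolar RNA SNORD24 by 0.50 (limma FDR 0.0288), of which the latter may share reads with its host gene and is uncertain.

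Trpv2, a calcium-permeable cation channel that macrophages also express, rose in a way that separated the libraries in each background. It stood at 12.3, 10.7 and 11 CPM in Control against 13.2, 16.6 and 15 CPM in Senicapoc, and at 16.9, 18.3 and 15.3 CPM in Tat against 18.5, 22.4 and 22.2 CPM in Tat-Senicapoc. In Tat-Cocaine it stood at 16.5, 15.6 and 21.0 CPM against 23.3, 25.2 and 26.2 CPM in Tat-Cocaine-Senicapoc. The mean effect was 0.39 (SE 0.10), with a limma FDR of 0.0498 that lay just under the threshold and exceeded it in 14 of the 18 fits that left out 1 library. The other 4 of the 10 largest rises were Mylip (0.44), a ubiquitin ligase that removes the LDL receptor, Usp16 (0.43), a histone deubiquitinase, Fmnl1 (0.41), an actin-assembling formin of leukocytes, and Gas7 (0.39), a protein of the cytoskeleton, with limma FDRs of 0.0425, 0.041, 0.0276 and 0.0493. All 10 had a positive estimate in each background, and the libraries did not overlap for 3 of them in untreated, 6 in Tat and 7 in Tat-Cocaine cultures, where 6.81%, 12.1% and 11.2% of all genes were higher without overlap. The 10 were chosen for their mean effect in these same libraries, so signs and separation describe them and test nothing.

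The largest falls were larger in size than the largest rises. Fat2 had a mean effect of −1.18 (SE 0.31, limma FDR 0.0459; 0.441-fold), with libraries that overlapped in untreated and Tat cultures. Tspan18, a tetraspanin, fell by 0.98 (limma FDR 0.0305), with −1.06, −0.34 and −1.52 in the 3 backgrounds. Itga7, which encodes a laminin-binding integrin subunit, stood at 72.0, 73.5 and 56.6 CPM in Control and 42.4, 54.9 and 39.3 CPM in Senicapoc libraries. It stood at 104, 173 and 145 CPM in Tat against 76.4, 69.2 and 61.2 CPM in Tat-Senicapoc, and at 88.2, 127 and 107 CPM in Tat-Cocaine against 69.5, 98.5 and 62.2 CPM in Tat-Cocaine-Senicapoc libraries. The groups did not overlap in untreated and Tat cultures, and in Tat-Cocaine cultures replicate 2 of the senicapoc group reached into the range of the other group. The mean effect was −0.69 (SE 0.12, limma FDR 0.00681; 0.622-fold), and Itga7 was called in each of the 18 fits that left out 1 library.

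Fam227a, a gene without a well-known role, had the smallest FDR among the large falls (−0.75, SE 0.13, limma FDR 0.00628) and was also called in all 18 fits. Its libraries stood at 10.4, 12.3 and 12.8 CPM in Control against 5.35, 7.69 and 4.29 CPM in Senicapoc, and at 7.55, 8.23 and 8.93 CPM in Tat against 4.96, 4.53 and 4.57 CPM in Tat-Senicapoc, without overlap. In Tat-Cocaine they stood at 4.94, 8.76 and 7.53 CPM against 5.93, 5.04 and 3.48 CPM in Tat-Cocaine-Senicapoc and overlapped. Plat, which encodes tissue plasminogen activator, stood at 262, 382 and 324 CPM in Control against 157, 167 and 177 CPM in Senicapoc libraries. With Tat it stood at 128, 226 and 201 CPM against 135, 146 and 115 CPM, and with Tat-Cocaine at 136, 183 and 115 CPM against 124, 133 and 89.4 CPM. Plat was thus lower without overlap in untreated cultures alone (−0.93), with overlapping groups at −0.45 and −0.32 in the other 2 backgrounds, and its mean effect was −0.57 (limma FDR 0.025). Whether its effect differed between backgrounds was tested and not called. The ciliogenesis factor Rfx2 (−0.57, limma FDR 0.0224), the glycosyltransferase Galnt3 (−0.70, limma FDR 0.041), the sialomucin Podxl (−0.61, limma FDR 0.0291), the zinc finger gene Zbtb7c (−0.61, limma FDR 0.0463) and the collagen prolyl hydroxylase subunit P4ha3 (−0.60, limma FDR 0.025) completed the 10. All 10 had a negative estimate in each background. The groups did not overlap for 5 of the 10 in untreated, 6 in Tat and 4 in Tat-Cocaine cultures, where 6.46%, 13.6% and 8.2% of all genes were lower without overlap. These 10 too were chosen for their mean effect in the same libraries, so this is a description and no test. Of the 20 genes, Itga7 and Fam227a alone were called in all 18 fits without 1 library, and each of the other 18 was lost in at least 1.

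**Figure D1:**
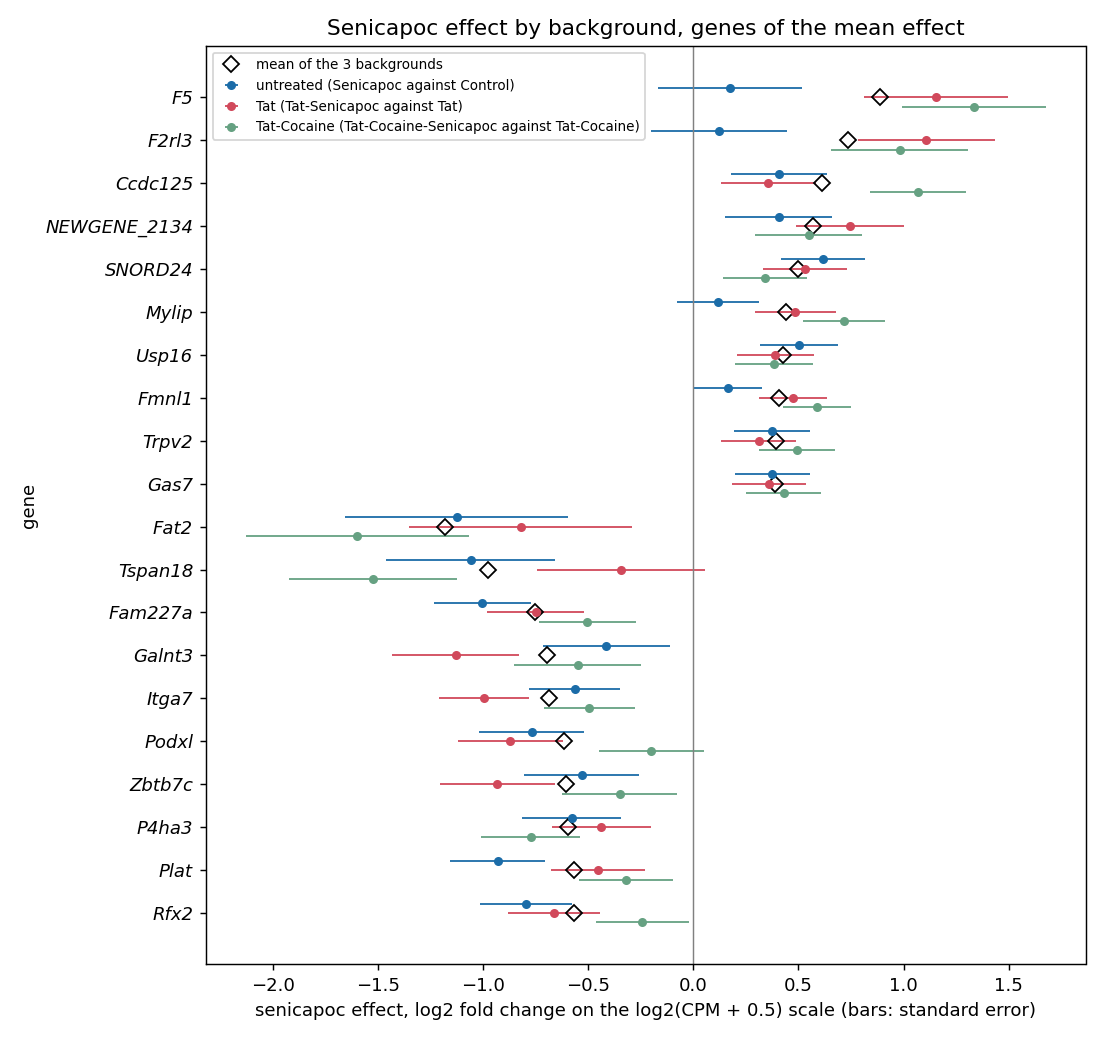
Log2 difference with senicapoc for the 10 genes with the largest rises and the 10 with the largest falls among those called in the mean effect, with open diamonds for the mean over the 3 backgrounds and coloured points for the difference in each background (blue untreated, red Tat, green Tat-Cocaine), whose bars are standard errors. All 20 genes had the same sign in the 3 backgrounds, from 0.89 for F5 to −1.18 for Fat2.

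Genes with smaller but steadier differences were named after their values were seen. Per3, a gene of the circadian clock, stood at 28.9, 31.4 and 33 CPM in Control against 24.0, 18.9 and 23.8 CPM in Senicapoc libraries. With Tat it stood at 25.6, 26.6 and 26.3 CPM against 20.4, 18.9 and 21.2 CPM, and with Tat-Cocaine at 25.2, 24.7 and 23.1 CPM against 19.7, 22.1 and 19.8 CPM. All 9 libraries with senicapoc were below those of their own background, with a mean effect of −0.36 (SE 0.06, limma FDR 0.00628), and the call was kept in all 18 fits that left out 1 library. Of all genes 6.46%, 13.6% and 8.2% were lower without overlap in untreated, Tat and Tat-Cocaine cultures.

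On the rising side the same was seen for other genes, also named after their values were seen. Eea1 (0.22), an early endosome tether, Bzw1 (0.28), a regulator of translation, Ranbp2 (0.25), a nuclear pore protein, Hras (0.26), a small GTPase, and Cct8 (0.24), a subunit of the cytosolic chaperonin, were higher without overlap in each of the 3 backgrounds, with limma FDRs of 0.00628, 0.00681, 0.00969, 0.00969 and 0.014. In untreated, Tat and Tat-Cocaine cultures 6.81%, 12.1% and 11.2% of all genes were higher without overlap. The share of all genes that met this in all 3 was not counted. Ranbp2 stood at 184, 181.5 and 199 CPM in Control against 219.6, 224 and 220.4 CPM in Senicapoc, at 217, 202 and 186 CPM in Tat against 240.2, 244 and 244 CPM in Tat-Senicapoc, and at 193, 212 and 221 CPM in Tat-Cocaine against 243, 252 and 249.6 CPM in Tat-Cocaine-Senicapoc. The mitochondrial kinase gene Pdk3, whose product restrains pyruvate oxidation, rose by 0.35 (limma FDR 0.00628).

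Of the list of Nrf2 targets, 22 genes were tested and 2 were called in the mean effect, both lower (0.699% of all genes were called lower): Nqo1 and Gsta1. Nqo1, a quinone reductase, stood at 87.1, 106 and 116 CPM in Control against 61.2, 97.8 and 77.9 CPM in Senicapoc libraries. It stood at 109, 114 and 121 CPM in Tat against 64.4, 80.9 and 84.0 CPM in Tat-Senicapoc, and at 109, 143 and 114 CPM in Tat-Cocaine against 65.3, 97.4 and 86.3 CPM in Tat-Cocaine-Senicapoc. The groups did not overlap in either background with Tat, while Senicapoc replicate 2 lay within the Control range. The mean effect was −0.52 (SE 0.10, limma FDR 0.0102; 0.699-fold), with −0.40, −0.59 and −0.56 in the 3 backgrounds, and the call was kept in all 18 fits without 1 library.

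Gsta1, a glutathione transferase, stood at 225, 331 and 264 CPM in Control against 126, 213 and 141 CPM in Senicapoc libraries, with no overlap. With Tat it stood at 201, 159 and 282 CPM against 159.6, 159 and 154 CPM, and with Tat-Cocaine at 299.7, 282 and 171 CPM against 162, 167 and 207 CPM, and the groups overlapped in both. Its mean effect of −0.55 (SE 0.13, limma FDR 0.0291) was lost in 9 of the 18 fits without 1 library, and near-identical copies of the gene make the assignment of its reads uncertain. The list as a whole had a median mean effect of −0.14, with 18 of 22 genes negative, where the median of all tested genes was 0.0019 and 49.5% of them were negative. Its median was −0.12, −0.17 and −0.046 in the 3 backgrounds and stayed negative in each fit that left out 1 library. The list's other members were not called. Outside the list and named after their values were seen, the glutathione transferase Gstt2 (−0.49, limma FDR 0.00969), thioredoxin Txn1 (−0.34, limma FDR 0.0328) and catalase Cat (−0.20, limma FDR 0.041) also fell. The list of genes for the aryl hydrocarbon receptor and other xenobiotic responses had 13 tested genes and 1 call among the 0.699% called lower, which was Nqo1 again, with a median of −0.052.

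Genes that handle calcium were of interest because the channel is opened by calcium. Of 24 tested genes of calcium entry and calmodulin, 1 rose in the mean effect (0.459% of all genes), Trpv2, and 1 fell (0.699% of all genes), Stim1, the sensor of calcium stores that opens store-operated channels. The median over the list was 0.00038, with 12 genes on either side of 0. Stim1 stood at 78.3, 79.2 and 85.5 CPM in Control against 71.9, 67.1 and 72.6 CPM in Senicapoc, at 89.4, 89.0 and 87.6 CPM in Tat against 78.6, 82.9 and 77.4 CPM in Tat-Senicapoc, and at 89.0, 85.5 and 84.9 CPM in Tat-Cocaine against 74.5, 87.3 and 80.0 CPM in Tat-Cocaine-Senicapoc. It was lower without overlap in untreated and Tat cultures, by a small amount in each (mean effect −0.15, SE 0.04, limma FDR 0.0425), and the call was lost in 13 of the 18 fits without 1 library.

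Among the calcium pumps of the plasma membrane, named after their values were seen, Atp2b1 rose and Atp2b4 fell. Atp2b1 stood at 131, 122 and 127 CPM in Control against 155, 143 and 156 CPM in Senicapoc, at 150.3, 111 and 129 CPM in Tat against 177, 187 and 186 CPM in Tat-Senicapoc, and at 118, 110.4 and 126 CPM in Tat-Cocaine against 133, 135 and 147 CPM in Tat-Cocaine-Senicapoc. It was higher without overlap in each background, with a mean effect of 0.33 (SE 0.07, limma FDR 0.012), and it was called in Tat cultures alone as well (0.51, limma FDR 0.0467). Of all genes 6.81%, 12.1% and 11.2% were higher without overlap in untreated, Tat and Tat-Cocaine cultures. Atp2b4 stood at 142, 165 and 194 CPM in Control against 119, 113 and 130.5 CPM in Senicapoc, and at 138, 138 and 112 CPM in Tat-Cocaine against 79.8, 94.2 and 91.0 CPM in Tat-Cocaine-Senicapoc, without overlap. With Tat it differed little, at 106, 99.7 and 99.8 CPM against 96.7, 96.2 and 99.8 CPM, and its mean effect was −0.35 (limma FDR 0.0291).

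**Figure D2:**
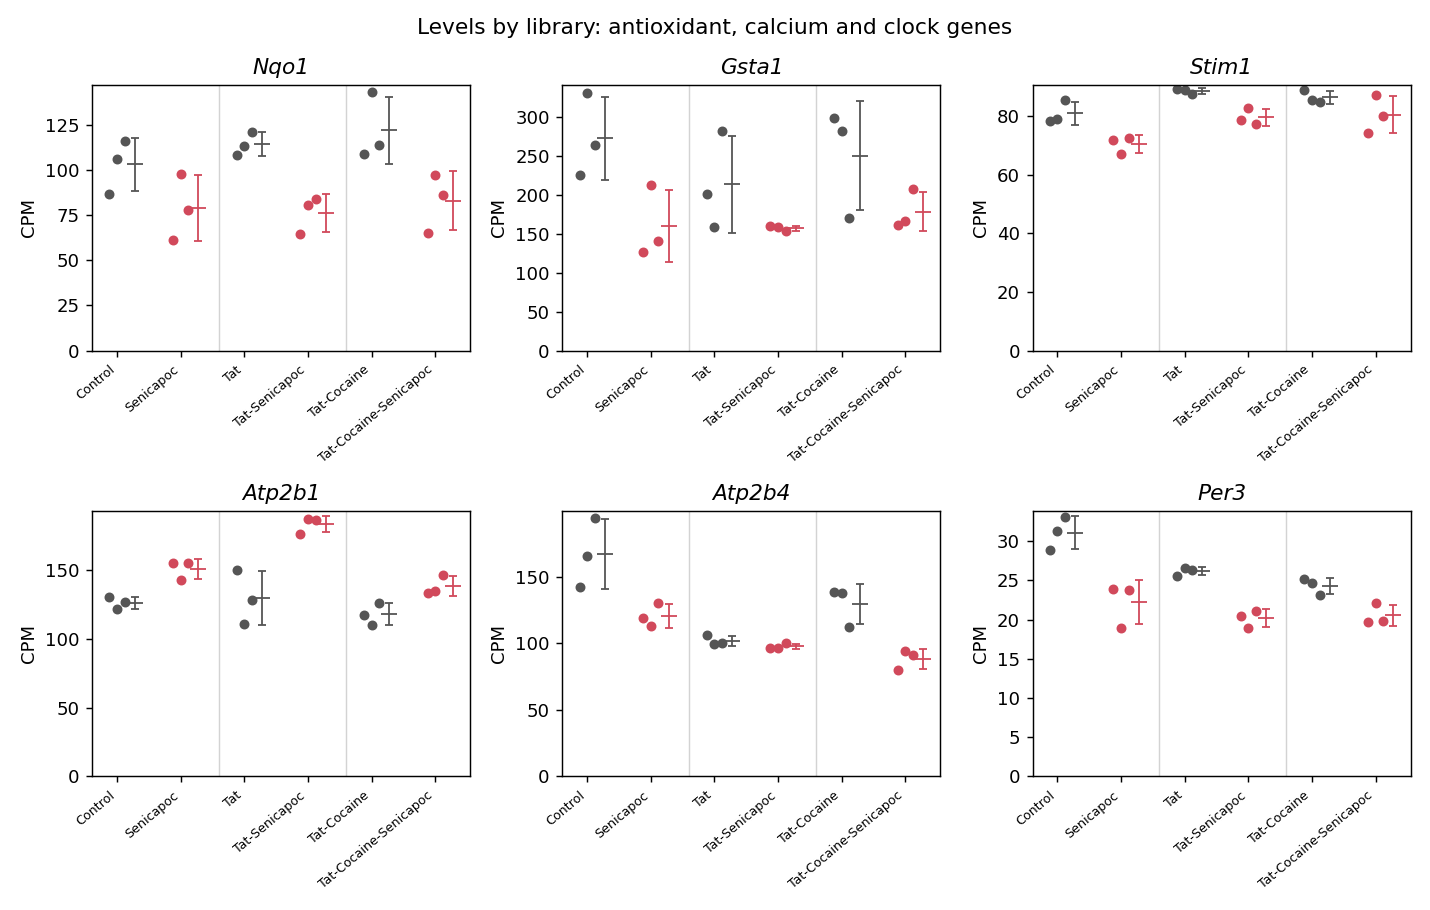
CPM of Nqo1, Gsta1, Stim1, Atp2b1, Atp2b4 and Per3 in each of the 18 libraries, by group, with grey points for libraries without and red points for libraries with senicapoc, and beside them the group mean with its SD (n = 3). Per3 is lower and Atp2b1 higher with senicapoc in every library of each background, while the groups of Gsta1 overlap in both backgrounds with Tat.

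In untreated cultures no single gene was called. Of 15890 genes 0 passed (0%), the smallest limma FDR was 0.301, and 1378 genes (8.67%) had an unadjusted p under 0.05. The count was 0 in each fit that left out 1 library. Control and Senicapoc libraries of the same number deviated together from their group means, with correlations of 0.142, 0.629 and 0.685, and with the replicate number as a block over all 48 libraries 15 genes were called, against 0 with a block within each background over the 18 libraries. Among the lists the median farthest from 0 in untreated cultures was that of motile cilium genes, which are markers of ciliated, ependymal-type cells, at −0.87. All 18 genes had negative estimates (50.2% of all genes), 10 of them at an unadjusted p under 0.05 (5.32% of all genes), and none was called. Their summed level was 419, 660.4 and 989 CPM in Control libraries, in rising order, and 239.7, 342 and 469 CPM in Senicapoc libraries. Cfap43 stood at 68.9, 111 and 148 CPM in Control against 45.4, 36.1 and 71.1 CPM in Senicapoc, and Ccdc39 at 45.6, 56.7 and 102 CPM against 52.6, 37.2 and 58.2 CPM, so that both overlapped. In Tat-Cocaine cultures all 18 genes of this list had positive estimates instead (53.0% of all genes), with a median of 0.49 and none called. That median was 0.26 and 0.76 without Tat-Cocaine replicates 1 and 3 and 0.31 and 0.73 without Tat-Cocaine-Senicapoc replicates 2 and 3. In bulk RNA, fewer cells of a type and less RNA per cell cannot be told apart.

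In Tat cultures more genes were called lower with senicapoc than higher. Limma called 65 genes (0.409%), 11 higher (0.0692%) and 54 lower (0.34%), while 2909 (18.3%) had an unadjusted p under 0.05. Of the 65, 5 of those higher and 18 of those lower were also called in the mean effect. The count was 0 without either of Tat replicates 2 and 3 or Tat-Senicapoc replicate 3, 6 without Tat-Senicapoc replicate 1, 7 without Tat-Senicapoc replicate 2, 7 without the 3 libraries that stood apart, and 23 (8 higher, 15 lower) after rescaling by median ratios. It was also 30 without Control replicate 1, 30 and 32 without Senicapoc replicates 1 and 3, and 33, 30 and 37 without Tat-Cocaine-Senicapoc replicates 1, 2 and 3, which enter this comparison only through the shared estimate of the spread.

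The largest rise in Tat cultures was that of Inhba, an activity-dependent gene that encodes the subunit of activin A. It stood at 2.84, 2.25 and 2.32 CPM in Tat and at 6.05, 19.4 and 9.91 CPM in Tat-Senicapoc libraries, a log2 difference of 1.90 (SE 0.41, limma FDR 0.0352). In Control and Senicapoc libraries it stood at 4.95, 2.45 and 2.54 CPM and at 5.42, 4.52 and 5.42 CPM, which overlapped through Control replicate 1. In Tat-Cocaine libraries it stood at 4.81, 3.27 and 7.41 CPM and with senicapoc at 2.12, 1.62 and 2.56 CPM, which is the opposite order (−1.07, limma FDR 0.216). Sik1, a kinase induced by cAMP and neuronal activity, rose in Tat cultures from 5.02, 5.43 and 5.77 CPM to 9.97, 9.94 and 8.15 CPM (0.74, limma FDR 0.0467), and the unnamed gene AABR07071765.1 rose by 1.02 (limma FDR 0.0352).

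The falls in Tat cultures were led by Ptges, which encodes the inducible prostaglandin E synthase. Its libraries stood at 31.8, 54.2 and 43.8 CPM in Tat and at 7.94, 10.9 and 5.54 CPM in Tat-Senicapoc, a fall by 2.36 on the log2 scale (SE 0.56, limma FDR 0.0496). In untreated cultures Ptges was near the detection limit, at 0.652, 0.834 and 0.227 CPM without and 0.334, 1.59 and 0.377 CPM with senicapoc. In Tat-Cocaine cultures it stood at 7.37, 46.3 and 31.2 CPM against 9.56, 26.7 and 9.20 CPM, with overlap and a difference of −0.71 (limma FDR 0.54). The placental growth factor gene Pgf stood at 11.4, 24.2 and 23.2 CPM in Tat against 5.11, 6.48 and 4.64 CPM in Tat-Senicapoc (−1.70, limma FDR 0.0429). Arhgap28, a regulator of the small GTPase RhoA, stood at 12.5, 19.8 and 14.4 CPM against 7.64, 5.11 and 5.85 CPM (−1.25, limma FDR 0.0216). Every Tat-Senicapoc library was below every Tat library for these 3 genes, which the rule that named them required. Of all genes 13.6% were lower without overlap in Tat cultures. Itga7 was called here too (−1.0, limma FDR 0.0354). Small falls with narrow spread included the respiratory chain subunit Uqcrq (−0.30, limma FDR 0.0496), the only 1 of 22 tested genes of its list that was called (0.34% of all genes were called lower), and, named after their values were seen, the mitochondrial ribosomal protein Mrpl22 (−0.32, limma FDR 0.0216) and the proteasome subunits Psma2 (−0.33, limma FDR 0.0467) and Psmb3 (−0.30, limma FDR 0.0496).

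In Tat-Cocaine cultures limma called 7 genes (0.0441%), 2 higher (0.0126%) and 5 lower (0.0315%). An unadjusted p below 0.05 was found for 2466 (15.5%). Leaving out Tat-Cocaine replicate 2 gave 0 calls, and leaving out replicate 3 of that group, the library that lay nearest to a Tat library, gave 985. It was 2 without Tat-Cocaine replicate 1, 1 without either of Tat-Cocaine-Senicapoc replicates 1 and 2, and 1351 without the 3 libraries that stood apart. Fam49b, which encodes an inhibitor of Rac1 signalling, rose from 79.7, 72.1 and 83.1 CPM to 109.7, 112 and 99.6 CPM (0.45, limma FDR 0.0268).

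The largest fall in Tat-Cocaine cultures was that of Nptx1, a neuronal pentraxin that gathers glutamate receptors at synapses. It stood at 76.9, 70.6 and 41 CPM in Tat-Cocaine and at 16.3, 20.2 and 23.8 CPM in Tat-Cocaine-Senicapoc libraries (−1.58, SE 0.31, limma FDR 0.0268). Ptpru, a receptor tyrosine phosphatase, fell from 21.1, 24.3 and 21.8 CPM to 13.5, 11.2 and 15.4 CPM (−0.73, limma FDR 0.0268), and Edrf1 from 27, 26.6 and 21.4 CPM to 16.6, 17.1 and 16.9 CPM (−0.55, limma FDR 0.0268). The groups of each did not overlap, which the rule that named them required. Of all genes 8.2% were lower without overlap in Tat-Cocaine cultures. The other 2 calls, named after their values were seen, were genes near the detection limit: Gucy2g, a receptor guanylate cyclase, at 0.724, 1.19 and 0.684 CPM against 0.173, 0.0829 and 0.0915 CPM (−1.13, limma FDR 0.00208), and the hyaluronan synthase Has1, at 1.32, 2.09 and 1.33 CPM against 0.260, 0.332 and 0.503 CPM (−1.25, limma FDR 0.0268).

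Whether the effect of senicapoc differed between backgrounds was tested gene by gene. Tat-Cocaine and Tat cultures may differ in the time since Tat was given as well as in cocaine. Between Tat and untreated cultures 0 genes were called (0%; 762 genes, 4.8%, at an unadjusted p under 0.05), and between Tat-Cocaine and untreated cultures 0 as well (0%; 2308 genes, 14.5%). Between Tat-Cocaine and Tat cultures 5 were called (0.0315%; 2643 genes, 16.6%, at an unadjusted p under 0.05), each with a more negative effect in Tat-Cocaine cultures: Nptx1 (−2.59), Psd3 (−1.02), Edrf1 (−0.78), Gucy2g (−1.25) and Inhba (−2.98), of which the last 2 were named after their values were seen. Psd3, which encodes an exchange factor found at postsynaptic sites, stood at 46.7, 35.7 and 45.4 CPM in Tat against 70.0, 53.8 and 55.7 CPM in Tat-Senicapoc, and at 60.6, 56.0 and 49.4 CPM in Tat-Cocaine against 33.3, 40.3 and 40.4 CPM in Tat-Cocaine-Senicapoc, so that the order of the groups was opposite without overlap in either background. Nptx1 showed the same crossing, at 18.4, 11.8 and 23.7 CPM in Tat against 43.9, 33.9 and 29.1 CPM in Tat-Senicapoc (1.00, limma FDR 0.115) and the fall described above with Tat-Cocaine, while in untreated cultures it overlapped at 36, 24.8 and 18.2 CPM against 34.3, 38.1 and 37.2 CPM. Both genes were named for this difference in the same libraries, so the crossing describes the call and does not test it. Singly, 12.1% of all genes were higher without overlap in Tat and 8.2% lower in Tat-Cocaine cultures, and the share that crossed was not counted. The libraries without senicapoc also stood apart between these backgrounds: Psd3 ran from 35.7 to 46.7 CPM in Tat and from 49.4 to 60.6 CPM in Tat-Cocaine, and Nptx1 from 11.8 to 23.7 CPM and from 41 to 76.9 CPM.

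The 5 differences were sensitive to single libraries. The count was 0 without any one of Tat replicate 2, Tat-Cocaine replicate 1 and Tat-Cocaine-Senicapoc replicate 1, 1 without Tat-Senicapoc replicate 1, 2 without either of Tat-Senicapoc replicates 2 and 3 or Tat-Cocaine-Senicapoc replicate 2, 3 with either of Tat replicate 1 or Tat-Cocaine replicate 2 left out, 13 when Tat replicate 3 and 43 when Tat-Cocaine replicate 3 was left out. Across the 15890 genes, which are not independent of each other, the effect in untreated cultures had a Pearson correlation of 0.504 with that in Tat cultures and −0.283 with that in Tat-Cocaine cultures, and the latter 2 one of −0.0637. No library is shared between these effects.

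**Figure D3:**
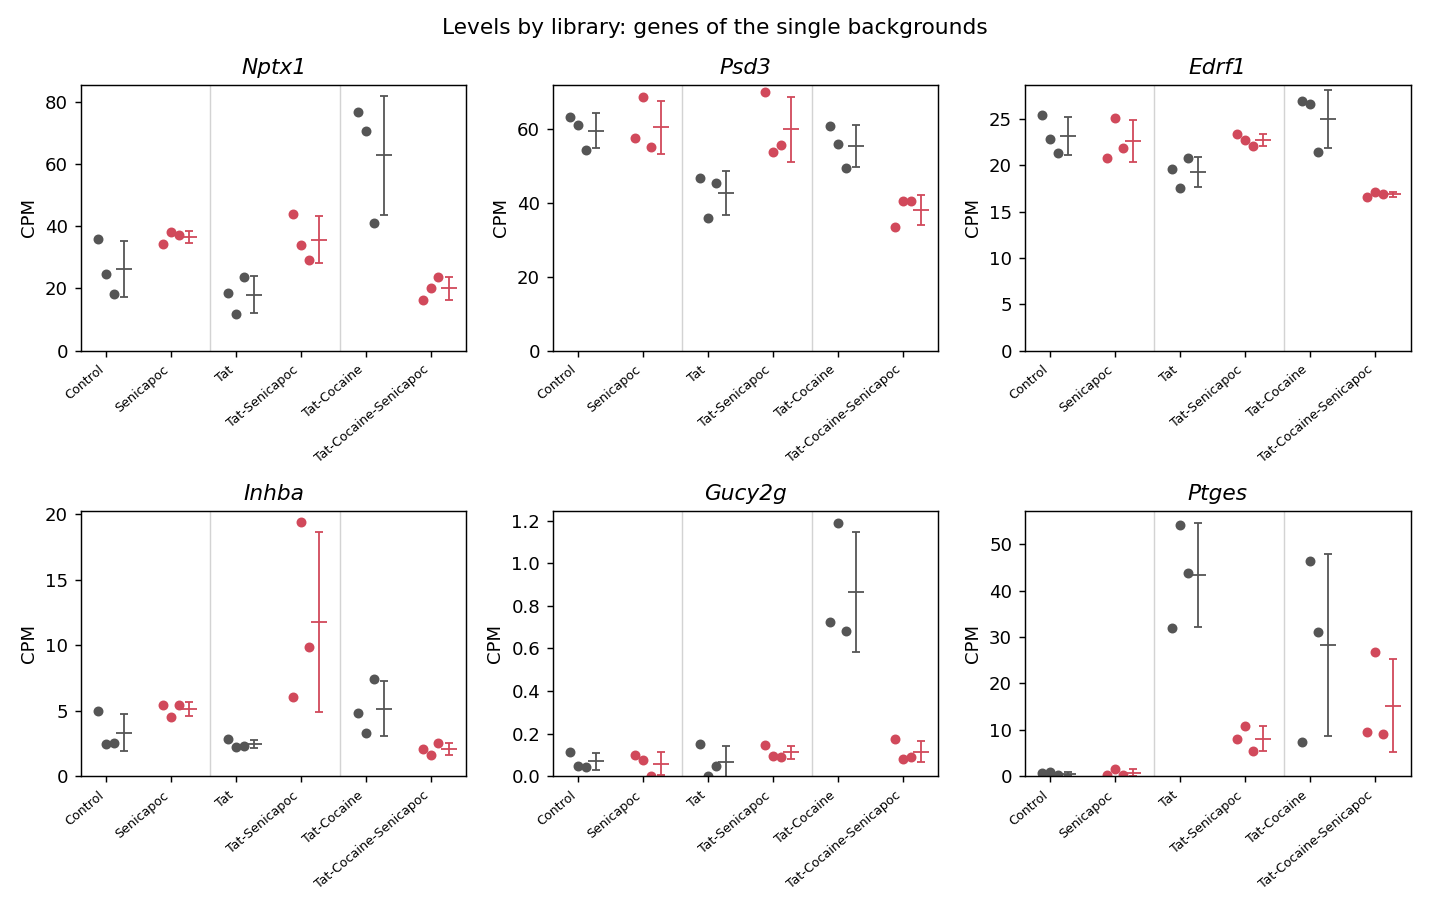
CPM of Nptx1, Psd3, Edrf1, Inhba, Gucy2g and Ptges in each of the 18 libraries, by group, with grey points for libraries without and red points for libraries with senicapoc, and beside them the group mean with its SD (n = 3). Nptx1, Psd3 and Inhba are higher with senicapoc in the Tat background and lower in the Tat-Cocaine background, whereas Ptges is near 0 in the untreated groups and separates in the Tat background.

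Gene lists of pathways and cell types were read in the same way. Of 31 lists, 25 had no gene called in the mean effect or in any background, and the lists are described by their medians, without a test. Glutamate and GABA receptor genes had positive estimates for 23 of 23 genes in untreated and in Tat cultures, with medians of 0.31 and 0.67, where 49.8% and 44.7% of all genes were positive, and a median of −0.14 in Tat-Cocaine cultures. The first was 0.49 without Control replicate 1 and 0.17 without Control replicate 3, and the second 0.36 without Tat replicate 2. In Tat cultures 13 of the 23 had an unadjusted p under 0.05 (8.73% of all genes were higher at this level) and none was called. Gria2, an AMPA receptor subunit, stood at 181, 107 and 167 CPM in Tat against 259, 195 and 219 CPM in Tat-Senicapoc, and Grin1, the obligatory NMDA receptor subunit, at 151, 93.3 and 157 CPM against 206, 199 and 184 CPM, both without overlap (12.1% of all genes were higher without overlap there).

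Markers of neurons moved with these receptors. All 16 neuron markers were detected above 1 CPM, and their median difference was 0.32 in untreated, 0.67 in Tat and −0.14 in Tat-Cocaine cultures, with none called. Without Tat replicate 2 the median in Tat cultures was 0.42, and in untreated cultures it was 0.49 without Control replicate 1 and 0.20 without Control replicate 3. Their summed level ran from 3782 to 5926 CPM in Control and from 5670 to 6033 CPM in Senicapoc, from 2167 to 3899 CPM in Tat and from 4798 to 5797 CPM in Tat-Senicapoc, and from 3242 to 4157 CPM in Tat-Cocaine and 2877 to 4108 CPM in Tat-Cocaine-Senicapoc libraries. The groups thus did not overlap in Tat cultures. With the summed levels of neuron and myeloid markers as covariates, an alternative chosen after seeing the data, the median of the receptor list in Tat cultures was −0.035 in place of 0.67. The covariates share libraries and genes of neurons with the list, and the part of cell composition in the difference was not tested otherwise.

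Immediate-early and activity-dependent genes, which neurons induce when they fire, had a median of 0.63 in untreated, 0.80 in Tat and −0.26 in Tat-Cocaine cultures. Of 22 genes tested, 12 were higher in Tat cultures at an unadjusted p under 0.05 (8.73% of all genes) and 1, Inhba, was called (0.0692% of all genes were called higher). Their summed level was 918, 937 and 1000.3 CPM in the Tat libraries, in rising order, against 1258, 1304 and 1623 CPM in Tat-Senicapoc, and 790.5, 850 and 943 CPM in Tat-Cocaine against 727, 787 and 811 CPM in Tat-Cocaine-Senicapoc. The signs of these medians were the same in each fit that left out 1 library and with the marker covariates, at 0.43 in Tat cultures. Fosb, named after its values were seen, stood at 4.41, 3.45 and 3.97 CPM in Tat against 10.2, 22.1 and 11 CPM in Tat-Senicapoc, and at 3.53, 2.78 and 9.34 CPM in Tat-Cocaine against 1.90, 0.912 and 2.20 CPM with senicapoc. The groups did not overlap in either background (12.1% of all genes were higher without overlap in Tat and 8.2% lower in Tat-Cocaine cultures). The difference of its effects of −2.94 was not called (limma FDR 0.0748). Genes of other potassium channels had a median of 0.54 in Tat cultures and none called (0.31 without Tat replicate 2), with Kcna2 at 55.6, 39.7 and 55.3 CPM in Tat against 90.5, 62.4 and 70.7 CPM in Tat-Senicapoc and Kcnd3 at 51.7, 52.0 and 54.0 CPM against 57.1, 56.1 and 56.4 CPM.

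Inflammatory gene lists, which carry the response to Tat, had negative medians in Tat cultures and held no called gene. Cytokines and chemokines had a median of −0.81 there, with 24 of 26 genes negative (55.3% of all genes) and 7 at an unadjusted p under 0.05 (9.58% of all genes were lower at this level). Their summed level was 2695, 2892 and 3477 CPM in Tat libraries, in rising order, and 1501, 1650.2 and 1811 CPM in Tat-Senicapoc libraries, which did not overlap. The monocyte chemoattractants Ccl2 and Ccl7 stood at 704, 916 and 782 CPM and at 527, 646 and 550.0 CPM in Tat against 315, 381 and 347 CPM and 274, 292 and 269 CPM in Tat-Senicapoc, and Ccl2 had a difference of −1.20 with an SE of 0.64 (limma FDR 0.31). In Tat-Cocaine cultures the list had a median of −0.097, and its sums of 1347, 2821 and 3195 CPM overlapped the 1871, 1901 and 2375 CPM with senicapoc. NF-κB targets had a median of −0.60 in Tat cultures, with 9 of 19 genes lower at an unadjusted p under 0.05, and 0.13 in Tat-Cocaine cultures.

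Interferon-response genes had negative estimates for 24 of 24 genes in untreated and in Tat cultures, with medians of −0.55 and −0.57, and in 16 of 24 in Tat-Cocaine cultures, with a median of −0.23. In untreated cultures this rested on Control replicate 2, which had the highest summed level of the list (4166 CPM, against 624 and 1345 CPM in the other Control libraries), and without it the median was 0.12. It was −1.26 without Control replicate 1, −0.12 without Senicapoc replicate 1 and −1.02 without Senicapoc replicate 2. In Tat-Cocaine cultures the median was 0.024 without Tat-Cocaine replicate 2 and −0.36 without replicate 1 of that group. In Tat cultures it lay between −0.71 and −0.47 in the fits without 1 library, and the sums of 2902, 3619.6 and 3669 CPM in Tat did not overlap the 2033, 2106 and 2226 CPM in Tat-Senicapoc. The guanylate-binding protein Gbp2 stood at 503, 704 and 634 CPM in Tat against 191, 289 and 239 CPM in Tat-Senicapoc (−1.36, limma FDR 0.228). Antigen presentation genes had a median of −0.63 in Tat cultures, with 9 of 20 lower at an unadjusted p under 0.05 (9.58% of all genes), of −0.41 in untreated and of −0.12 in Tat-Cocaine cultures. The value in untreated cultures was −0.72 and −0.027 without Control replicates 1 and 2 and −0.19, −0.71 and −0.27 without Senicapoc replicates 1, 2 and 3, while that in Tat cultures stayed between −0.80 and −0.54. The class I heavy chain RT1-A2 stood at 968, 1297 and 1390.1 CPM in Tat against 888, 721 and 733 CPM in Tat-Senicapoc, without overlap (13.6% of all genes were lower without overlap there). Outside these lists and named after their values were seen, Trafd1 (−0.33, limma FDR 0.00969), the class I gene RT1-M3-1 (−0.45, limma FDR 0.0187) and the guanylate-binding protein Gbp3 (−0.50, limma FDR 0.0291) were called lower in the mean effect (0.699% of all genes). These calls were kept in 18, 13 and 8 of the 18 fits without 1 library, and Gbp3 had a mean of only 0.34 CPM.

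Markers of myeloid cells did not follow these lists in Tat cultures. Homeostatic microglia markers had a median difference of −0.71 in untreated, −0.083 in Tat and 0.82 in Tat-Cocaine cultures, and those of macrophages and other myeloid cells −0.40, −0.066 and 0.98. None was called. The summed level of the myeloid markers ran from 2106 to 4782 CPM in Tat and from 1933 to 4519 CPM in Tat-Senicapoc, and from 1361 to 3531 CPM in Tat-Cocaine against 3749.6 to 5408 CPM in Tat-Cocaine-Senicapoc, without overlap in the latter background. The microglial marker Siglech was at 0 in all 18 libraries, and 11 of 12 microglia markers in the table were above 1 CPM. The lysozyme gene Lyz2 stood at 822, 595 and 2129 CPM in Tat-Cocaine against 2625, 3423 and 2143 CPM with senicapoc, and Csf1r, the receptor on which microglia depend, at 363, 203 and 386 CPM against 517, 637 and 474 CPM, both without overlap (11.2% of all genes were higher without overlap there). For Lyz2 the margin was narrow, at 2129 CPM in Tat-Cocaine replicate 3 against 2143 CPM.

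Cell cycle genes stood out in Tat-Cocaine cultures, where 25 of 25 had positive estimates (53.0% of all genes), with a median of 1.05. Of them 22 had an unadjusted p under 0.05 (9.72% of all genes). None was called. Their summed level was 399.5, 423 and 608 CPM in Tat-Cocaine, in rising order, against 694, 884 and 1013 CPM in Tat-Cocaine-Senicapoc, without overlap, while the sums in Tat (488 to 963 CPM) and Tat-Senicapoc (417 to 934 CPM) overlapped and the median was −0.023. The myeloid markers moved in the same direction in these libraries. With the marker covariates the median was 0.44, and the part of cell composition was not tested otherwise. Aurkb, a mitotic kinase, stood at 21.7, 40.4 and 39.5 CPM in Tat-Cocaine against 49.1, 80.4 and 24.9 CPM with senicapoc and so overlapped.

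Several of these medians changed sign when 1 library was left out. In Tat cultures, leaving out Tat-Senicapoc replicate 1 turned those of complement (0.10), the cell cycle (0.40), homeostatic microglia (0.11) and other myeloid cells (0.26) to above 0, and leaving out Tat replicate 2 did so for the same 4 lists (0.058, 0.25, 0.078 and 0.19). In Tat-Cocaine cultures the median of NF-κB targets was −0.17 without replicate 1 of the group without senicapoc, those of cytokines and antigen presentation were 0.11 and 0.031 without its replicate 2, and that of the receptors was 0.039 without Tat-Cocaine-Senicapoc replicate 2. In untreated cultures the cell cycle stood at 0.059 without Control replicate 3 and astrocyte markers at 0.15 without Senicapoc replicate 2. Of the lists that kept their sign, homeostatic microglia markers in untreated cultures stood at −1.12 and −0.36 without Control replicates 1 and 2 and those of other myeloid cells at −0.23 without Control replicate 2. In Tat-Cocaine cultures the homeostatic markers stood at 0.54 without Tat-Cocaine replicate 2.

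The other lists moved less or held fewer genes. Complement genes had medians of −0.55, −0.13 and 0.55 in untreated, Tat and Tat-Cocaine cultures, and disease-associated microglia genes −0.21, −0.21 and 0.25. Without Control replicate 2 the untreated medians were −0.27 and −0.10. For the disease-associated genes that in untreated cultures was −0.38 without Senicapoc replicate 2, that in Tat cultures −0.35 and −0.0088 without Tat replicates 1 and 2 and −0.088 and −0.37 without Tat-Senicapoc replicates 1 and 2, and that in Tat-Cocaine cultures 0.14 without replicate 2 of the group without senicapoc and 0.15 without replicate 2 of the group with it. Collagens and matrix genes had a median of −0.41 in Tat cultures (−0.27 without Tat replicate 2) and of −0.058 and −0.039 in the other 2 backgrounds. Cholesterol synthesis genes had a median of 0.088 in the mean effect, with 18 of 22 genes positive (50.5% of all genes) and none called, and of 0.050, 0.18 and 0.039 in the 3 backgrounds. In Tat cultures 5 of the 22 were higher at an unadjusted p under 0.05 (8.73% of all genes), and the median there was 0.29 and 0.11 without Tat-Senicapoc replicates 1 and 2. ATF4 targets had medians of 0.21, 0.097 and −0.14, and of 0.020 in the mean effect. The first was 0.088 and 0.32 without Control replicates 1 and 2 and 0.098 without Senicapoc replicate 2, and the third −0.26 without Tat-Cocaine replicate 3. Heat shock and chaperones (−0.014), hypoxia and glycolysis (0.030), lipid storage and PPAR targets (−0.022) and the respiratory chain (−0.00016) had medians near that of all genes in the mean effect, and Mylip was the only call among the lipid genes. Astrocyte markers had medians of −0.27, 0.18 and 0.13 and oligodendrocyte markers of 0.51, −0.13 and −0.46, the latter with summed levels that spread from 294 to 1624 CPM within Control alone. The oligodendrocyte median had no firm sign in any background, since in fits without 1 library it ranged from −0.21 (without Control replicate 3) to 1.26 (without Control replicate 1) in untreated, from −0.78 (without Tat replicate 1) to 0.77 (without Tat replicate 3) in Tat and from −0.95 (without Tat-Cocaine replicate 3) to 0.11 (without replicate 1 of that group) in Tat-Cocaine cultures. Markers of oligodendrocyte precursors (−0.16), endothelial cells (−0.11), pericytes and fibroblasts (−0.014) and erythroid cells (−0.15, 2 genes tested) had no call either, the values being medians of the mean effect.

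**Figure D4:**
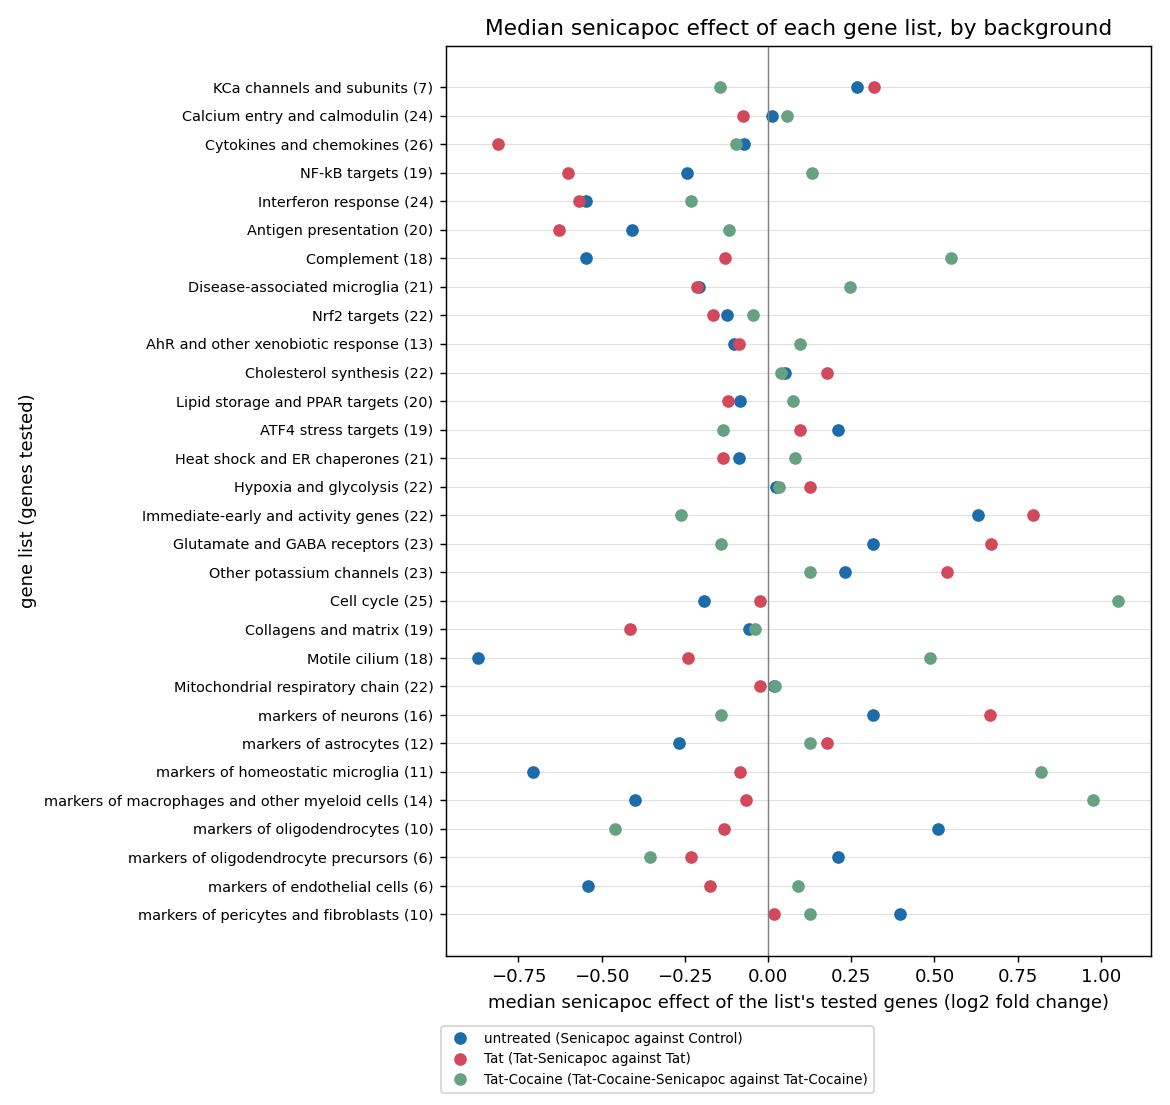
Median log2 difference with senicapoc over the tested genes of each list with at least 5 tested genes, in untreated (blue), Tat (red) and Tat-Cocaine cultures (green), with the number of tested genes in brackets and a line at 0. The lists of neurons and receptors lie to the right in Tat cultures, those of cytokines and interferon response to the left, and that of the cell cycle reaches 1.05 in Tat-Cocaine cultures.

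Genes of the Tat response were followed in effects whose libraries entered their choice only through the shared estimate of the spread. Against Control, Tat changed 3382 genes (21.3%), 2318 higher (14.6%) and 1064 lower (6.7%), and these were described by the effect of senicapoc in Tat-Cocaine cultures. Of the 2318, 1662 (71.7%) were higher with senicapoc, where 53.0% of all genes were, with a median of 0.13 that was 0.060 without Tat-Cocaine replicate 1 and 0.21 without replicate 3 of that group, and the 1064 had a median of −0.038. Tat-Cocaine against Control changed 2372 genes (14.9%), 1371 higher (8.63%) and 1001 lower (6.3%), and these were described by the effect of senicapoc in Tat cultures. Of the 1371, 1118 were lower with senicapoc, where 55.3% of all genes were, with a median of −0.20, and of the 1001, 582 were higher, where 44.7% of all genes were, with a median of 0.054. The median was thus above 0 for genes raised by Tat, read in Tat-Cocaine cultures, and below 0 for genes raised by Tat-Cocaine, read in Tat cultures. The sign was not firm for the lowered genes. With Control replicate 1 left out the median was 0.0024 for those lowered by Tat and −0.015 for those lowered by Tat-Cocaine, and with Tat-Cocaine replicate 1 left out it was 0.0069 for the former. The lists were chosen on libraries of the same series, and with the marker covariates the median of 0.13 became −0.014 and that of −0.20 became −0.095.

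The same cultures were also given 3 other compounds, amlexanox (25 µM), an inhibitor of the kinases TBK1 and IKKε, tazemetostat (3 µM), an inhibitor of the histone methyltransferase EZH2, and 4OI (250 µM), a cell-permeable ester of itaconate, each on the same 3 backgrounds. Doses differ, and the compounds are not analogs. The mean level over the 3 backgrounds was compared directly between senicapoc and each compound, which needs no Control library. Between senicapoc and amlexanox 184 genes were called (1.16%; 74 higher, 0.466%, and 110 lower, 0.692%), against 4724 for tazemetostat (29.7%) and 4036 for 4OI (25.4%). Of the 20 genes with the largest mean effects, 0 differed from amlexanox in the direction of the effect, 11 from tazemetostat and 15 from 4OI, and none differed from all 3 compounds. Of the 184 genes called in the mean effect, 4 (2.17%) differed from amlexanox in the direction of the effect, 84 (45.7%) from tazemetostat and 91 (49.5%) from 4OI. These shares count 1 direction per gene, while those of all genes count both. The count of 184 against amlexanox was 73, 320 and 62 without Senicapoc replicates 1, 2 and 3, 120, 84 and 95 without those of Tat-Senicapoc and 101, 111 and 75 without those of Tat-Cocaine-Senicapoc.

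The 20 genes were chosen for a large difference between libraries with senicapoc and libraries without a compound, so their values against amlexanox are a description and test nothing. The size of the difference between senicapoc and amlexanox ran from 0.012 to 0.55 on the log2 scale, with a median of 0.15, and its 95% interval included 0 for 16 of the 20. Itga7 had a mean of 63.7 CPM with senicapoc, 55.0 CPM with amlexanox and 105 CPM without a compound, and the difference of 0.22 had an interval of −0.035 to 0.47. Per3, which is not among the 20, stood at 21.0, 21.6 and 27.2 CPM, and Gsta1 at 165, 186 and 246 CPM in the same order. Nqo1 stood at 79.5 CPM with senicapoc, 95.6 CPM with amlexanox and 113 CPM without a compound, a difference of −0.26 with an interval of −0.47 to −0.054 that was not called (limma FDR 0.194). Atp2b1 was higher with senicapoc than with amlexanox by 0.24 (interval 0.10 to 0.37, limma FDR 0.064). An interval that holds 0 does not show that the compounds act alike. Because the vehicle of cultures without a compound was not given, effects of senicapoc and of a vehicle could not be told apart.

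**Figure D5:**
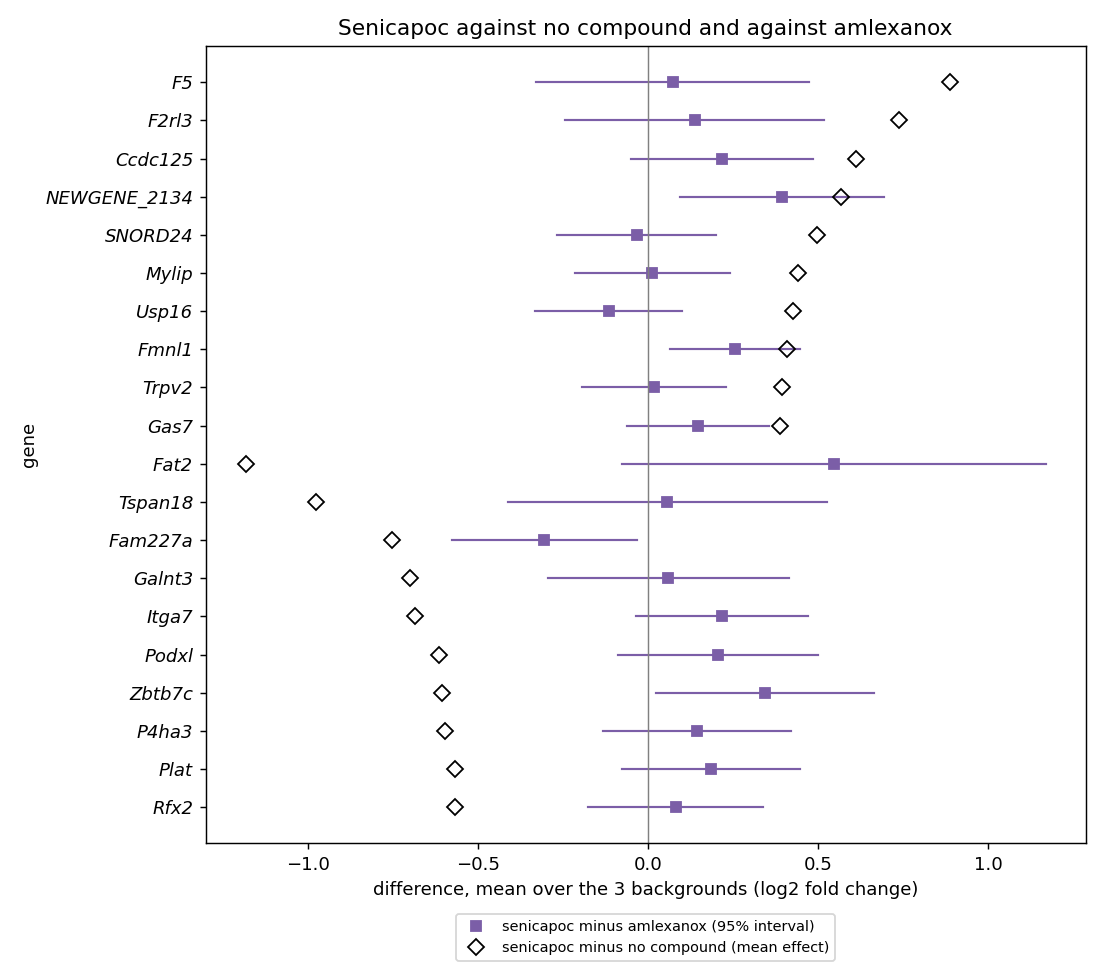
Log2 difference between senicapoc and amlexanox (squares, with the 95% interval) and mean effect of senicapoc against no compound (diamonds) for the 20 genes with the largest mean effects, both as means over the 3 backgrounds. The intervals hold 0 for 16 of the 20 genes, which were chosen by the values that the diamonds show.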

How the data were processed

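RNA-seq libraries of rat cortical cultures were analysed from the table the authors deposited. The authors made strand-specific libraries, sequenced both ends, aligned reads with STAR 2.7.2, counted uniquely mapped reads per gene (Subread 1.5.3 is named in the submitters' processing notes) and scaled them with TMM in edgeR. The signal the authors deposited is thus TMM-scaled CPM, summing to 930399 to 1034370 per library. The genome is named differently in the methods and the labels, and no gene positions are given outside the promoter entries. The table's 16 columns of group means and 36 comparisons by the authors (log2 fold changes, p-values) were not used.

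Of the values above 0, 85.0 to 87.0% were whole reads within 0.02 read, so count tests were not run. Values were analysed as log2(CPM + 0.5) with limma 3.58.1 (lmFit, eBayes with trend) in R 4.3.3, for the 15890 of 30211 genes that reached 0.5 CPM in 3 or more of the 48 libraries, 1 mean per group, 16 groups and 32 residual degrees of freedom, without covariates. Samples were grouped by their labels, and the smallest two-sided p of an exact permutation test of 3 libraries against 3 is 0.1. Libraries of a group had Pearson correlations of 0.992 to 0.998 and a chi-square per degree of freedom of 5.90 to 91.6, so none is a copy of another. Same-numbered libraries deviated together in untreated cultures (correlations 0.142 to 0.685). In Tat cultures those of number 2 did so (0.586) and those of numbers 1 and 3 did not (−0.304 and −0.622). In Tat-Cocaine cultures the correlations ran from −0.208 to 0.235.

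The genes named were, at 1 CPM or more, the 10 largest rises and falls called in the mean effect, the 3 largest in each background without overlap, up to 3 per difference between backgrounds, Kcnn4, Acod1, and for each list its called genes or its 2 most expressed. The comparisons, the 31 lists and these rules were chosen with earlier results of these data known, and genes outside the rule are marked as named after their values were seen. A gene that the rule names is not reported here. Alternatives were other pseudocounts, filters, scalings, sets of libraries, weights, replicate blocks and the removal of single libraries. The code was tested on simulated data.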

Additional observations from a re-analysis of the deposited data

Results flagged for a closer look

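In 5 genes the effect of senicapoc differed between Tat-Cocaine and Tat cultures by a test of the difference itself, which is what singled them out. Nptx1 had a difference of −2.59 (SE 0.44, limma FDR 0.0136), from an effect of 1.00 in Tat to one of −1.58 in Tat-Cocaine cultures. Psd3 had a difference of −1.02 (SE 0.18, limma FDR 0.0136), from 0.48 to −0.54, and Edrf1 one of −0.78 (SE 0.15, limma FDR 0.0323), from 0.23 to −0.55. Gucy2g had a difference of −1.25 (SE 0.24, limma FDR 0.0323), from 0.12 to −1.13, and rests on a level near 1 CPM or below. Inhba had a difference of −2.98 (SE 0.57, limma FDR 0.0323), from 1.90 to −1.07. The summed neuron markers did not overlap between Tat and Tat-Senicapoc libraries, and the summed myeloid markers not between Tat-Cocaine and Tat-Cocaine-Senicapoc libraries, and their part in these differences was not tested. Without the 3 libraries that stood apart, Inhba and Gucy2g were no longer called.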

How the results depend on the processing

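Counts of called genes moved with the processing, and those by more than 1.5 times were as follows. With a pseudocount of 0.1 CPM the Tat count was 25, and with 1 CPM that of Tat-Cocaine against Tat was 9. Without a filter the mean effect had 116 calls, untreated 1 and Tat-Cocaine 12. Median ratio rescaling left 23 in Tat (8 higher, 15 lower), and quantile normalization gave 31 in Tat, 13 in Tat-Cocaine (2 higher, 11 lower) and 312 against amlexanox (65 higher, 247 lower). A fit to the 18 libraries gave 54 in the mean effect (27 higher, 27 lower), 0 in Tat, 0 in Tat-Cocaine, 2 for Tat-Cocaine against untreated and 0 for Tat-Cocaine against Tat, and fits to the 6 libraries of a background gave 0 in Tat and 0 in Tat-Cocaine. Without a trend Tat had 23. Array weights, whose estimation stopped before convergence, gave 4302 in the mean effect, 3243 in untreated, 458 in Tat and 4540 in Tat-Cocaine, 18, 3867 and 2042 for the differences of Tat against untreated, Tat-Cocaine against untreated and Tat-Cocaine against Tat, 3988, 9636 and 6778 against amlexanox, tazemetostat and 4OI, and a median of −0.14 for genes lowered by Tat. The replicate block over 48 libraries gave 754 in the mean effect, 15 in untreated, 646 in Tat, 18 in Tat-Cocaine, 38 for Tat-Cocaine against Tat and 435 against amlexanox, and the replicate block within backgrounds over 18 libraries 87 in the mean effect, 26 in Tat, 0 in Tat-Cocaine and 0 for Tat-Cocaine against Tat. Leaving out untreated cultures gave 89 in the mean effect and leaving out Tat cultures 0. Of the alternatives added after seeing the data, marker covariates gave 69 in the mean effect, 1 in Tat, 52 in Tat-Cocaine, 6 for Tat-Cocaine against untreated, 1000 against amlexanox, 53 against tazemetostat and 2142 against 4OI, with medians of −0.014, −0.095 and 0.082 for genes raised by Tat, raised by Tat-Cocaine and lowered by Tat-Cocaine, and leaving out 3 distant libraries gave 1316, 7 and 1351 in the mean effect, Tat and Tat-Cocaine, 307 against amlexanox and a median of 0.093 for genes lowered by Tat-Cocaine. The causes were not tested.

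Without 1 library the counts ranged from 33 to 540 in the mean effect, 0 to 73 in Tat, 0 to 985 in Tat-Cocaine, 0 to 1 for Tat-Cocaine against untreated, 0 to 43 for Tat-Cocaine against Tat and 62 to 320 against amlexanox, and the median of genes lowered by Tat-Cocaine from −0.015 to 0.11. Of 2142 values of single genes under the alternatives, 1501 kept their side of the threshold, 627 lost and 14 gained the call, and 0 changed sign while called. The edgeR test on whole reads was not run, since fractional reads were deposited. The median SE was 0.168 in 1 background and 0.0972 for the mean of the 3.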
